A study of Mus musculus with 8 samples.

Results

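The 38 genes described here encode the enzymes of cholesterol and fatty acid synthesis and the proteins that control them, in primary osteoblasts of the mouse calvaria. They were chosen by symbol, and all 38 were found among the 47706 genes of the count table, with 1 entry each. They comprise 7 genes of the mevalonate and isoprenoid steps, 11 of the steps from squalene to cholesterol, 6 of the control of sterol regulatory element-binding proteins (SREBPs) and of sterol transport, 10 of fatty acid synthesis, desaturation and elongation, and 4 of the liver X receptors (LXRs) and cholesterol efflux. Cultures in the 2 groups had been differentiated for 7 days and were then given parathyroid hormone (PTH; 4 samples) or vehicle (4 samples) for 24 hours. The labels name the differentiation adipogenic, whereas the study's methods describe osteogenic differentiation of cells from newborn mice and serum starvation before treatment. Titles of the samples in both groups begin with "Con", which the labels do not explain, and strain, genotype, sex and dose are not in the labels. Nothing in the labels says that the samples of a group came from separate animals or preparations, so p-values measure only the spread between these samples, which may be technical.

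Cells make cholesterol and isoprenoids from acetyl-CoA through mevalonate, and long-chain fatty acids from the same precursor through malonyl-CoA. SREBP2 is best known for activating the sterol genes and SREBP1 for activating the fatty acid genes. Both are held in the endoplasmic reticulum by the escort protein SCAP and the INSIG proteins when sterols are plentiful. LXRs are receptors for oxysterols that also act when sterols are plentiful, and they activate cholesterol efflux. The comparison asked how the RNA of these genes differed after PTH, which the study examined for its effects on osteoblast metabolism.

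Levels are normalised read counts in CPM, that is, scaled to the same library size in every sample. Sequencing depth was between 33605610 and 56090654 total counts per sample with PTH and between 41618108 and 46757836 with vehicle. The labels were checked with Tnfsf11, the osteoclast-promoting cytokine RANKL, a known PTH target, which rose from 1.42 ± 0.365 to 128 ± 20 CPM (mean ± SD, n = 4 per group, here and below). Pth1r, the PTH receptor, fell from 136 ± 21.1 to 83.6 ± 11.6 CPM. The 10 osteoblast markers, among them the collagen genes, summed to between 92866 and 105322 CPM with vehicle and to between 86867 and 125497 CPM with PTH, and 2 of them fell, Runx2 and Sp7. The 10 adipocyte markers summed to between 109.9 and 135.5 CPM with vehicle and to between 107.1 and 125.2 CPM with PTH. Pparg was the only adipocyte marker called by edgeR, with a log2 fold change of -1.5. Adipocyte-defining genes were present at low levels with vehicle and PTH, namely Adipoq at 3.48 and 3.86 CPM, Plin1 at 6.70 and 6.98 CPM and Fabp4 at 14.8 and 20.9 CPM, while Cebpa was at 75.6 and 72.4 CPM and Lep and Retn had means under 1 CPM in both groups. Fabp4 was not called by edgeR (log2 0.49, adjusted p = 0.0673) but was higher with PTH by DESeq2 (adjusted p = 0.0372). The 10 macrophage markers summed to between 1043 and 1701 CPM with vehicle and to between 1630 and 2102 CPM with PTH. By edgeR 2 of them rose, Tyrobp and Lyz2. Fcer1g was not called by edgeR (adjusted p = 0.0538) but was higher with PTH by DESeq2 (adjusted p = 0.0334). The 6 chondrocyte markers summed to between 422 and 481 CPM with vehicle and to between 494 and 622 CPM with PTH, and 2 of them rose. The 6 endothelial markers summed to at most 10.4 CPM in any sample, and by edgeR 1 of them rose and 1 fell. The rise was that of Kdr, from 0.692 ± 0.403 to 1.98 ± 0.675 CPM (edgeR adjusted p = 0.0107). The part of these other cell types in the changes of the 38 genes was not tested. In bulk samples, fewer cells of a type and less RNA per cell cannot be told apart.

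All 38 genes passed the filter on low counts. PTH raised 15 of them (39.5%) and lowered 7 (18.4%) at an adjusted p under 0.05 by edgeR's quasi-likelihood test, and 16 did not pass. Of the 16736 genes tested, 23.3% rose and 22.5% fell, so the share that fell among the 38 was near the background. The share that rose was higher, but the genes were chosen with earlier results of these data known, and the difference was not tested. The median log2 fold change (PTH over vehicle) was 0.055 over the 38 genes and -0.00081 over all genes tested. Rises of at least 2-fold were seen for 7 genes (18.4%), against 7.36% of all genes. These were Pmvk, Mvk, Hsd17b7, Cyp51, Stard4, Elovl5 and Elovl6, and they were spread over the mevalonate, squalene, SREBP and fatty acid groups. Falls of at least 2-fold made up 3.88% of all genes, too small a share to read their absence among 38 genes as a result. The largest fall among the 38, that of Dhcr7, was -0.80 on the log2 scale. The 4 PTH samples all lay above the 4 vehicle samples for 12 genes (31.6%), against 21.2% of all genes, and all below them for 7 (18.4%), against 21.8%. Members of the same linear pathway went both ways, as the plot of fold changes by group shows.

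**Figure D1:**
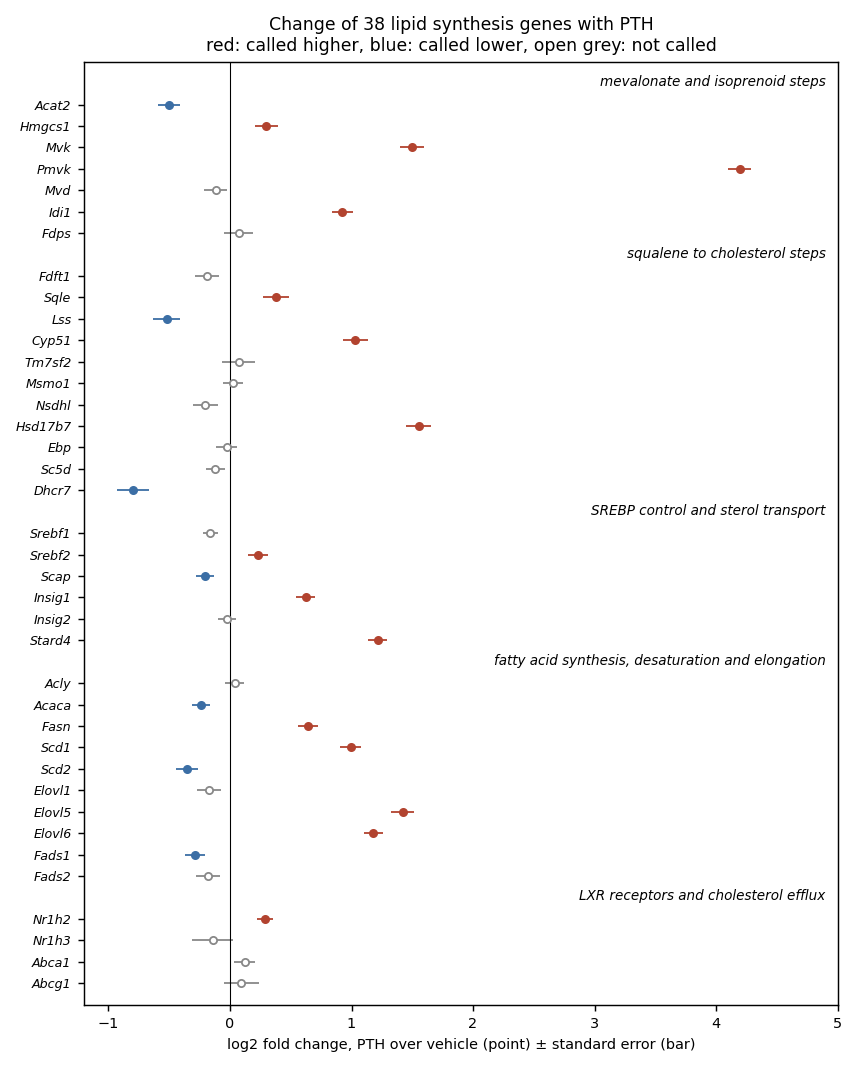
Log2 fold change of PTH over vehicle for each of the 38 genes, grouped by role, with bars for the standard error of the edgeR fit and colours for genes called higher, called lower or not called. Pmvk stands alone at 4.19, the next rises are those of Hsd17b7 (1.55), Mvk (1.5) and Elovl5 (1.42), and Dhcr7 (-0.80) lies lowest.

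Promoter sequences are shown for 6 genes, taken from RefSeq on GRCm38.p6, each running from 250 bases before to 50 bases after the annotated start. They were chosen as the promoters of 4 genes with large rises (Pmvk, Mvk, Hsd17b7 and Elovl5) and of a gene with a fall (Lss). The promoter of Hmgcs1 was chosen because its window held the only match for a sterol regulatory element. Capitals mark the letters TCACNCCAC (sterol regulatory element), CCAAT (the box bound by NF-Y, a partner of SREBPs at sterol genes) and TGACGTCA (cAMP response element, bound by the CREB family that acts downstream of the PTH receptor), searched on both strands, so that CCAAT on the other strand reads ATTGG.
Hmgcs1: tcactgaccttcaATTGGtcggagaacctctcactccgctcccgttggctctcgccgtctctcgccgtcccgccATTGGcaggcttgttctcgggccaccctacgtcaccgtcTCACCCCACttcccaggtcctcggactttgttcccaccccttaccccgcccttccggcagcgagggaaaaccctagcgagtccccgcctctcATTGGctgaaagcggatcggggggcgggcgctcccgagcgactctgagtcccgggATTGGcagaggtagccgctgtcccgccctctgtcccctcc
Pmvk: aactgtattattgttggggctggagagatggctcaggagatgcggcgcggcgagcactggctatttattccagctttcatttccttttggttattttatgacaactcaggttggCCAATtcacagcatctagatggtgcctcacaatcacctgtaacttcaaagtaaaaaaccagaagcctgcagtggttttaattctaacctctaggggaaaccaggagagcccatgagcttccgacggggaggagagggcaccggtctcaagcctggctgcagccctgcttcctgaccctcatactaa
Mvk: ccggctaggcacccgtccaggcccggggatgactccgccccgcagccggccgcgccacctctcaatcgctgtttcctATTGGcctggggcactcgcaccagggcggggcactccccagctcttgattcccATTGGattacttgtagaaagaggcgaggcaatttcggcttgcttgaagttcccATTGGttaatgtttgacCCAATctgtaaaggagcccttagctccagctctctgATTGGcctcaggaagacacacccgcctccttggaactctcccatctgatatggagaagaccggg
Hsd17b7: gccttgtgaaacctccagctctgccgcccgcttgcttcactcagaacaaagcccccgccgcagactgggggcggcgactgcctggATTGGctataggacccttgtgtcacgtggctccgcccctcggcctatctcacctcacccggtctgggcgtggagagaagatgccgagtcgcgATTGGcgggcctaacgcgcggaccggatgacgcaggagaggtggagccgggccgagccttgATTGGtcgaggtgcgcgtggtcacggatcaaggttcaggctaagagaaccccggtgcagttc
Elovl5: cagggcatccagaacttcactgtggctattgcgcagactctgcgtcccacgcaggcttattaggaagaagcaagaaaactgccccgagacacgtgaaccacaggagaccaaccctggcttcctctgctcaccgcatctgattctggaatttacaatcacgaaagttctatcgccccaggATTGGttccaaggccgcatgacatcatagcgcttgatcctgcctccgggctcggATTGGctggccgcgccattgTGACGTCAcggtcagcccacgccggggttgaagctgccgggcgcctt
Lss: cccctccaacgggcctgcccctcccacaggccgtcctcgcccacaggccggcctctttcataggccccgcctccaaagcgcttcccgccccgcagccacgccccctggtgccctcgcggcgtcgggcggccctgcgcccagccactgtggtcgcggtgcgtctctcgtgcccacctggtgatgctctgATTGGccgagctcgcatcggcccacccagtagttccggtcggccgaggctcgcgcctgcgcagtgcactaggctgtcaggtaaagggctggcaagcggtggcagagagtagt
The windows are chr13:119690101-119690400 (plus strand) for Hmgcs1, chr3:89454291-89454590 (plus strand) for Pmvk, chr5:114444019-114444318 (plus strand) for Mvk, chr1:169969156-169969455 (minus strand) for Hsd17b7, chr9:77917115-77917414 (plus strand) for Elovl5 and chr10:76531355-76531654 (plus strand) for Lss. Pmvk has a further annotated window, chr3:89459321-89459620, which held none of the 3 motifs. The printed window belongs to the start at lower coordinates, and which start was used in these cultures was not tested.

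Of the 38 genes, 30 had a promoter in the RefSeq table. The NF-Y box was present in 22 of these 30 genes (73.3%). By window, it was in 23 of the 40 windows of these genes, against 37.4% of all 32851 windows of this length. By gene, it was in 41.1% of all 27025 genes with a window. Those genes were not limited to the 16736 that passed the filter on low counts. The difference may therefore not be particular to these pathways. The box was in 10 of the 12 genes that rose, in 2 of the 5 that fell and in 10 of the 13 that were not called. A gene was counted when any of its windows held the box, which for Pmvk was the printed window only. The Mvk window held 5 matches, the Hsd17b7 window 3 and the Lss window 1. The match for the sterol regulatory element began 137 bases before the start of Hmgcs1. These letters were found in no other of the 30 genes (3.33%), against 1.44% of all genes. The cAMP response element began at base 4 after the start of Elovl5, also in 1 of the 30 genes, against 2.03% of all genes. These matches describe the letters in the windows and are not measured binding sites. Only the exact letters were searched, so a gene without a match may still hold an element that differs from them.

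The mevalonate and isoprenoid steps held the largest rise. Of the 7 genes, 4 rose, 1 fell and 2 did not pass the test, with a median log2 fold change of 0.30. Pmvk encodes phosphomevalonate kinase, which adds the second phosphate on the way to isopentenyl diphosphate, and lies at chr3:89454541-89469013 (GRCm38, plus strand). Its levels in the vehicle samples were 13.8, 10.5, 12.6 and 12.0 CPM, and in the PTH samples 230.6, 242.7, 210.5 and 210.0 CPM. The groups were far apart, and the lowest PTH sample was above 200 CPM where no vehicle sample reached 14. Mean Pmvk rose from 12.2 ± 1.38 to 223 ± 16 CPM, a fold change of 18.3 (log2 4.19 ± 0.096 SE, edgeR adjusted p = 1.35e-11). Leaving out any 1 library gave log2 values between 4.12 and 4.25. The gene beside it at lower coordinates, Pbxip1, had a log2 fold change of 0.0090 (edgeR adjusted p = 0.929), and Kcnn3 on the other side had 0.58 (edgeR adjusted p = 0.169).

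Mvk, at chr5:114444269-114460591 (plus strand), encodes mevalonate kinase, which acts just before Pmvk. It was at 36.3, 36.9, 32.8 and 38.4 CPM with vehicle and at 122.9, 88.9, 95.6 and 101.1 CPM with PTH. The vehicle samples lay close together, PTH replicate 1 was the highest of its group, and the groups did not overlap. Mvk rose from 36.1 ± 2.39 to 102 ± 14.7 CPM (log2 fold change 1.5 ± 0.098 SE, edgeR adjusted p = 1.37e-07). The neighbouring gene Mmab, which lies 209 bases away on the opposite strand and takes part in cobalamin metabolism, fell from 35.5 ± 2.76 to 18.9 ± 1.60 CPM (log2 -0.91, edgeR adjusted p = 3.6e-06). Mmab is not one of the 38 genes and was named after its values were seen, because it faces Mvk across the window printed above.

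Idi1, the isomerase that makes dimethylallyl diphosphate, rose from 49.6 ± 5.59 to 94.2 ± 7.40 CPM (log2 0.92, edgeR adjusted p = 4.03e-06). A stretch of 684 bases of Idi1 is identical to the entry Gm13502, so reads between them may have been split. Hmgcs1 encodes the HMG-CoA synthase of the cytosol, which makes the precursor of mevalonate. Its vehicle samples were at 203.7, 215.0, 219.4 and 257.4 CPM and its PTH samples at 300.4, 237.4, 277.5 and 287.1 CPM. PTH replicate 2 lay below vehicle replicate 4, so the groups overlapped. The log2 fold change of Hmgcs1 was 0.30 ± 0.092 SE (edgeR adjusted p = 0.0184), and the exact two-sided permutation test on log2(CPM + 0.1) gave p = 0.0571, where 0.0286 is the smallest p that 4 against 4 samples allow. The call was kept in 3 of the 8 fits that left out 1 library, with adjusted p up to 0.0809. It was lost without PTH replicate 3, PTH replicate 4, vehicle replicate 1, vehicle replicate 2 or vehicle replicate 3.

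Acat2, the thiolase that joins the first acetyl-CoA units, was the gene of this group that fell. It was at 39.9, 37.9, 42.6 and 48.0 CPM with vehicle and at 29.4, 28.6, 27.7 and 33.2 CPM with PTH. All PTH samples were below all vehicle samples, with a log2 fold change of -0.50 ± 0.088 SE (edgeR adjusted p = 0.000599). Acat2 shares 1477 bases at 97.7% identity with Acat3, which had 938 counts over all samples, and 445 bases with Tcp1, so its counts carry that uncertainty. Mvd, the decarboxylase that follows Pmvk, had 22.5 ± 2.38 and 20.8 ± 1.69 CPM (log2 -0.12, edgeR adjusted p = 0.338). Fdps, farnesyl diphosphate synthase, had 91.7 ± 16 and 96.4 ± 12.2 CPM (log2 0.072, edgeR adjusted p = 0.657). Fdps lies in an assembled locus that holds another symbol and resembles the pseudogenes Gm3571 and Gm5873. Along the chain of reactions, Hmgcs1, Mvk, Pmvk and Idi1 rose while Mvd, which acts between Pmvk and Idi1, did not pass the test.

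**Figure D2:**
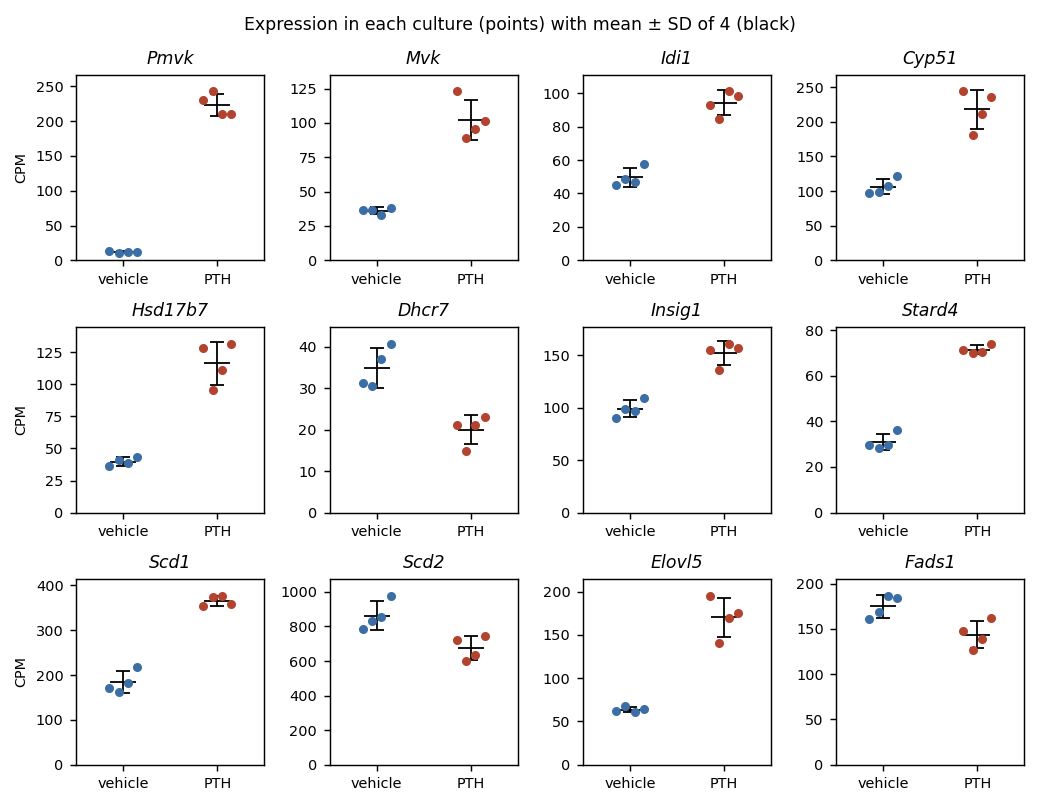
Level in CPM of 12 of the genes in each of the 4 vehicle (blue) and 4 PTH (red) samples, 1 panel per gene with its own linear axis starting at 0, each point a sample in order of its number, with the mean ± SD of 4 in black. Pmvk, Mvk, Hsd17b7 and Elovl5 show groups far apart, Dhcr7 and Scd2 show lower PTH samples without overlap, and Fads1 shows the overlap of PTH replicate 4 (161.7 CPM) with vehicle replicate 1 (160.5 CPM).

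Of the 11 genes from squalene to cholesterol, 3 rose, 2 fell and 6 did not pass the test, with a median log2 fold change of -0.027. Hsd17b7, at chr1:169949535-169969241 (minus strand), encodes the ketosterol reductase of the demethylation cycle. Its vehicle samples were at 36.1, 41.0, 38.3 and 43.5 CPM and its PTH samples at 128.2, 95.4, 110.8 and 131.7 CPM. The lowest PTH sample, replicate 2, was still above all vehicle samples. The log2 fold change was 1.55 ± 0.103 SE (edgeR adjusted p = 1.57e-07). Cyp51, at chr5:4081145-4104746 (minus strand), encodes lanosterol demethylase. It was at 98.0, 98.3, 107.9 and 122.1 CPM with vehicle and at 244.0, 180.8, 211.4 and 235.8 CPM with PTH, again without overlap. Cyp51 doubled, with a log2 fold change of 1.03 ± 0.103 SE (edgeR adjusted p = 6.24e-06). The Cyp51 and Akap9 transcripts overlap by 166 bases on opposite strands, and Akap9 had a log2 fold change of 0.26. Whether the counting used strand is not given in the sources used here, so reads in that overlap cannot be told apart.

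Sqle encodes squalene epoxidase, which catalyses an early and rate-controlling step of this branch. Its vehicle samples were at 73.1, 69.4, 74.7 and 85.9 CPM and its PTH samples at 118.3, 82.7, 88.7 and 104.4 CPM. PTH replicate 2 was below vehicle replicate 4. The log2 fold change was 0.38 ± 0.109 SE (edgeR adjusted p = 0.0132), and the exact permutation p was 0.0571. Without vehicle replicate 2 the adjusted p was 0.059, and the other 7 fits without 1 library kept the call.

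Dhcr7, at chr7:143823145-143848410 (plus strand), encodes the reductase of the last step to cholesterol, and it fell the most of all 38 genes. It was at 31.3, 30.4, 37.0 and 40.7 CPM with vehicle and at 21.0, 14.9, 21.1 and 23.0 CPM with PTH. No PTH sample reached the lowest vehicle sample. The log2 fold change was -0.80 ± 0.134 SE (edgeR adjusted p = 0.00043). Lss, at chr10:76531588-76557138 (plus strand), encodes lanosterol synthase, which closes the sterol rings. It was at 26.9, 29.1, 28.5 and 36.6 CPM with vehicle and at 18.4, 23.3, 19.4 and 23.2 CPM with PTH, also without overlap. Lss fell by 0.52 on the log2 scale (SE 0.113, edgeR adjusted p = 0.00253). The steps on either side of Lss, those of Sqle and Cyp51, rose.

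The 6 genes of these steps that did not pass the test had log2 fold changes between -0.20 and 0.071. They were Fdft1 (squalene synthase), Nsdhl, Msmo1, Tm7sf2, Ebp and Sc5d, which act on the sterol nucleus after squalene except for Fdft1. Fdft1 overlaps 774 bases of Ctsb on the opposite strand, a gene with 369788 counts over all samples, so its level of 50.6 ± 6.57 CPM with vehicle and 44.3 ± 4.49 CPM with PTH may include reads of Ctsb. Tm7sf2 overlaps 532 bases of Vps51. Summed over the 18 genes of the sterol branch, the level was between 918 and 1143 CPM with vehicle and between 1384 and 1661 CPM with PTH. With Pmvk left out of the sum the range was 904 to 1131 CPM with vehicle and 1141 to 1430 CPM with PTH. PTH replicate 2 then stood just above vehicle replicate 4.

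Among the 6 genes of SREBP control and sterol transport, 3 rose and 1 fell, with a median log2 fold change of 0.10. Stard4 encodes a carrier of cholesterol within the cell. It was at 29.4, 28.3, 29.4 and 36.1 CPM with vehicle and at 71.5, 69.9, 70.6 and 74.1 CPM with PTH. The PTH samples lay within 5 CPM of each other and far above vehicle, with a log2 fold change of 1.21 ± 0.081 SE (edgeR adjusted p = 1.66e-07). Insig1, at chr5:28071363-28078662 (plus strand), encodes a retention protein whose own gene is a classical SREBP target. It was at 89.9, 99.2, 96.8 and 109.5 CPM with vehicle and at 155.3, 135.7, 161.1 and 157.3 CPM with PTH. The groups did not overlap, and Insig1 rose by 0.62 on the log2 scale (SE 0.078, edgeR adjusted p = 4.35e-05). Its paralogue Insig2 had 44.8 ± 3.75 and 43.9 ± 2.34 CPM (log2 -0.028, edgeR adjusted p = 0.788).

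The SREBP genes themselves differed little. Srebf2, encoding SREBP2, was at 122.6, 120.7, 135.1 and 133.0 CPM with vehicle and at 165.7, 129.9, 144.8 and 159.3 CPM with PTH. Its groups overlapped through PTH replicate 2, the log2 fold change was 0.23 ± 0.082 SE (edgeR adjusted p = 0.0368) and the exact permutation p was 0.0857. This call was kept in 1 of the 8 fits without 1 library, the fit without PTH replicate 2, and reached an adjusted p of 0.146 among the others. It was also lost with DESeq2 (adjusted p = 0.0501), by which 2 of the 6 genes rose. Srebf1, encoding SREBP1, was at 88.6, 92.8, 93.9 and 89.6 CPM with vehicle and at 87.3, 78.9, 74.7 and 85.3 CPM with PTH. All PTH samples were below all vehicle samples, but the fit did not call Srebf1 (log2 -0.16 ± 0.065 SE, edgeR adjusted p = 0.0618), except without PTH replicate 1 (adjusted p = 0.0271). Srebf1 lies in a locus that holds another symbol and overlaps Rai1 by 109 bases on the opposite strand.

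Scap, encoding the escort protein, was at 74.0, 82.9, 78.2 and 71.5 CPM with vehicle and at 71.5, 62.3, 61.8 and 70.9 CPM with PTH. Its groups touched without overlapping. The log2 fold change was -0.20 ± 0.074 SE (edgeR adjusted p = 0.0425). The call was kept in 3 of the 8 fits without 1 library and was lost without PTH replicate 2, PTH replicate 3, vehicle replicate 1, vehicle replicate 2 or vehicle replicate 3, with adjusted p up to 0.137. It was also lost with DESeq2 (adjusted p = 0.0589), and no gene of the group fell by that tool.

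Of the 10 fatty acid genes, 4 rose, 3 fell and 3 did not pass the test, with a median log2 fold change of -0.067. The rises were those of Fasn, Scd1, Elovl5 and Elovl6, which build, desaturate and elongate the chain. Elovl5, at chr9:77917364-77984519 (plus strand), encodes an elongase of polyunsaturated chains. It was at 61.7, 67.7, 60.7 and 64.2 CPM with vehicle and at 195.1, 140.3, 169.8 and 175.3 CPM with PTH. All PTH samples were above 140 CPM and all vehicle samples below 70, with a log2 fold change of 1.42 ± 0.093 SE (edgeR adjusted p = 1.32e-07). Elovl6, at chr3:129532355-129638495 (plus strand), encodes an elongase of saturated and monounsaturated chains. It was at 44.8, 41.5, 45.7 and 48.3 CPM with vehicle and at 115.4, 92.4, 97.4 and 103.2 CPM with PTH. The groups did not overlap, and Elovl6 rose by 1.18 on the log2 scale (SE 0.080, edgeR adjusted p = 1.8e-07). Elovl1, an elongase of very long chains, was not called (log2 -0.17, edgeR adjusted p = 0.175).

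Scd1, at chr19:44394455-44407879 (minus strand), encodes a desaturase that makes monounsaturated fatty acids. It was at 172.1, 163.1, 181.5 and 218.7 CPM with vehicle and at 354.5, 373.5, 376.5 and 358.2 CPM with PTH. Here PTH replicate 2 was not low, and the log2 fold change was 0.99 ± 0.089 SE (edgeR adjusted p = 2.34e-06). Its paralogue Scd2, at chr19:44293674-44306864 (plus strand), went the other way. Scd2 was at 783.7, 833.8, 856.8 and 977.3 CPM with vehicle and at 721.3, 600.3, 634.8 and 745.1 CPM with PTH, with a log2 fold change of -0.35 ± 0.094 SE (edgeR adjusted p = 0.0087). A stretch of 623 bases is 95.5% identical between both genes, which leaves room for some exchange of reads. The Scd2 locus also holds Mir5114, which overlaps Scd2 by 61 bases on the same strand and had 6336 counts over all samples. The ratio of Scd1 to Scd2 counts was 0.22, 0.20, 0.21 and 0.22 in the vehicle samples and 0.49, 0.62, 0.59 and 0.48 in the PTH samples. Its means were 0.213 ± 0.0124 and 0.547 ± 0.0713.

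Fasn, at chr11:120805846-120824547 (minus strand), encodes fatty acid synthase. It was at 131.3, 117.8, 128.2 and 143.6 CPM with vehicle and at 182.8, 225.2, 207.6 and 197.8 CPM with PTH. The groups were separate, and PTH replicate 2 was the highest. Fasn rose by 0.64 on the log2 scale (SE 0.082, edgeR adjusted p = 4.98e-05). Acaca, encoding the acetyl-CoA carboxylase that supplies malonyl-CoA to Fasn, was at 35.4, 38, 40.7 and 42.8 CPM with vehicle and at 34.4, 32.5, 33.0 and 33.2 CPM with PTH. These groups came within about 1 CPM of each other but did not overlap, with a log2 fold change of -0.24 ± 0.073 SE (edgeR adjusted p = 0.0183). The call was lost without vehicle replicate 3 or vehicle replicate 4 (adjusted p up to 0.0646). Acly, which makes cytosolic acetyl-CoA for both pathways, had 156 ± 11.0 and 160 ± 14 CPM (log2 0.039, edgeR adjusted p = 0.718).

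Fads1, at chr19:10182888-10196877 (plus strand), lies in a locus that holds another symbol (Mir6993) and encodes a desaturase of polyunsaturated fatty acids. It was at 160.5, 169.0, 186.6 and 184.5 CPM with vehicle and at 147.4, 126.4, 138.8 and 161.7 CPM with PTH. PTH replicate 4 lay just above vehicle replicate 1, so the groups overlapped, with a log2 fold change of -0.29 ± 0.084 SE (edgeR adjusted p = 0.0145) and an exact permutation p of 0.0571. The call was lost without PTH replicate 3, vehicle replicate 3 or vehicle replicate 4 (adjusted p up to 0.0521). Fads2, which acts in the same pathway, had a log2 fold change of -0.18 (edgeR adjusted p = 0.154). Summed over the 10 genes, the level was between 1645 and 1984 CPM with vehicle and between 1834 and 2064 CPM with PTH, and these ranges overlapped. Scd2 alone gave 863 ± 82.1 CPM of the vehicle sum.

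Of the 4 genes of LXRs and efflux, 1 rose and none was called lower by edgeR (0 at an unadjusted p under 0.05 and 0 by DESeq2). Nr1h2, which encodes the widely expressed LXRβ, was at 58.3, 50.9, 56.1 and 57.7 CPM with vehicle and at 66.3, 68.6, 64.0 and 73.3 CPM with PTH. The groups did not overlap, and the log2 fold change was 0.29 ± 0.069 SE (edgeR adjusted p = 0.00453). Abca1, the LXR target that exports cholesterol to lipid-poor apolipoprotein, was at 115.9, 103.3, 104.0 and 100.2 CPM with vehicle and at 105.0, 128.7, 124.4 and 102.1 CPM with PTH. Its groups overlapped widely (log2 0.12 ± 0.086 SE, edgeR adjusted p = 0.281). Nr1h3, encoding LXRα, and the exporter Abcg1 were the genes with the fewest counts, between 143 and 264 and between 273 and 428 per sample, and neither was called (log2 -0.14 and 0.092). Changes of their size were not detectable at this depth and spread.

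Levels between genes were compared as mean CPM per kilobase of transcript. With vehicle, Scd2 was the highest at 158, followed by Fdps at 66.3, Hmgcs1 at 64.6, Fads1 at 50.6 and Scd1 at 38 CPM per kilobase. Pmvk ranked 30 of 38 with vehicle, at 10.2, and ranked 1 of 38 with PTH, at 187 CPM per kilobase. Mvk moved from rank 15 to rank 6 and Elovl5 from 14 to 7. Acaca, Nr1h3 and Abcg1 were lowest in both groups, at 4.12, 2.42 and 1.21 CPM per kilobase with vehicle.

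**Figure D3:**
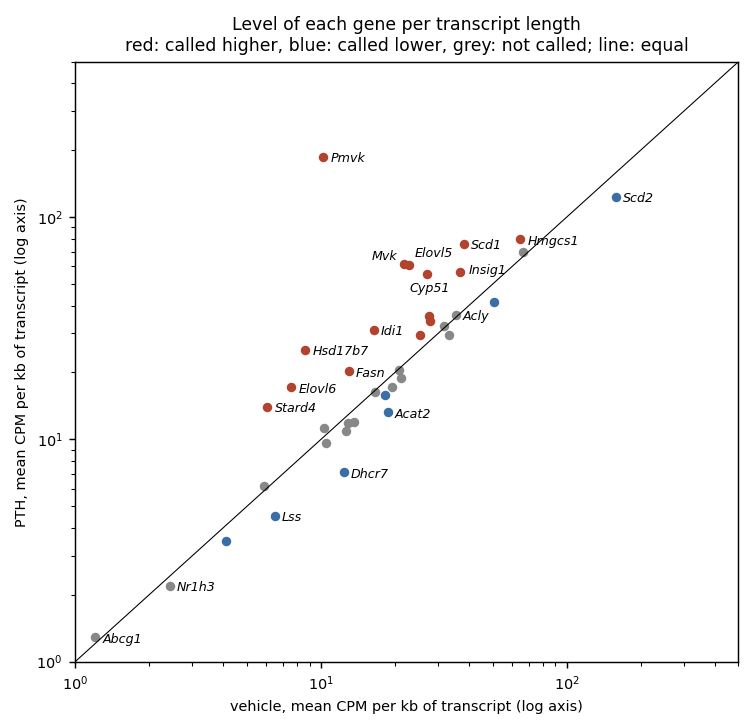
Mean level of each gene in CPM per kilobase of transcript with vehicle (x axis) and with PTH (y axis), both on log axes, with the line of equal levels and colours for genes called higher, lower or not called. Pmvk lies far above the line (10.2 against 187), while Scd2, the most abundant gene with vehicle, lies below it (158 against 124).

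Ratios within a sample between related genes were computed for 9 pairs, which were chosen with values known and are given without a test. The ratio of Mvk to Mvd counts was 1.62 ± 0.204 with vehicle and 4.95 ± 0.954 with PTH, and that of Pmvk to Mvd was 0.546 ± 0.0792 and 10.8 ± 1.49. Among the elongases, Elovl5 to Elovl1 was 1.06 ± 0.0340 and 3.20 ± 0.321, and Elovl6 to Elovl1 was 0.750 ± 0.0586 and 1.93 ± 0.162. These ratios compare counts of genes of different length, so only the change between groups can be read from them. Insig1 to Insig2 was 2.21 ± 0.116 and 3.47 ± 0.267, and Srebf2 to Srebf1 was 1.40 ± 0.0788 and 1.84 ± 0.131. These 6 ratios and that of Scd1 to Scd2 were higher in all PTH samples than in any vehicle sample. The ratio of Fads1 to Fads2 (2.86 ± 0.180 and 2.66 ± 0.177) and that of Abca1 to Abcg1 (15.4 ± 2.83 and 15.4 ± 1.81) overlapped between groups.

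**Figure D4:**
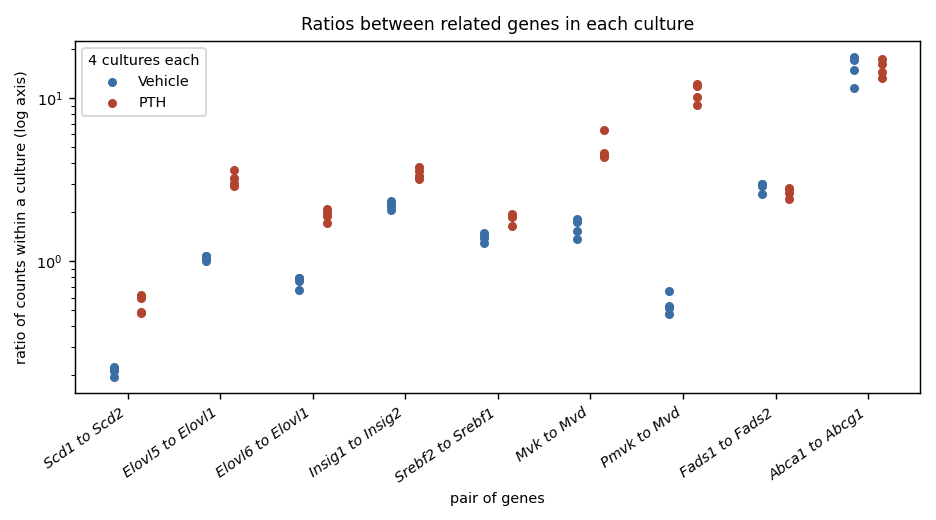
Ratio of counts between 9 pairs of related genes in each of the 4 vehicle (blue) and 4 PTH (red) samples, on a log axis. The groups separate for 7 pairs, most widely for Pmvk to Mvd (means 0.546 and 10.8), and overlap for Fads1 to Fads2 and Abca1 to Abcg1.

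The spread within treatments was shared by many of the genes. In vehicle replicate 4, 32 of the 38 genes were above the vehicle mean, with a median deviation of 0.160 on the log2 scale, and all 10 fatty acid genes and 16 of the 18 sterol genes were among them. In PTH replicate 2, the library with the fewest counts, 29 of the 38 were below the PTH mean, with a median deviation of -0.136, and 15 of the 18 sterol genes were among them. The 4 LXR and efflux genes differed from this and were all above the PTH mean in that library. Such counts were not made over all genes tested. Whether the deviations were particular to the 38 genes was not tested. With both libraries left out, an alternative added after the data were seen, 16 genes rose and 3 fell. Acat2, Lss and Dhcr7 stayed lower, Fdps became higher (log2 0.27, edgeR adjusted p = 0.0355), and Scd2, Fads1, Acaca and Scap were no longer called. In this fit of 3 against 3 samples the log2 fold changes were -0.22 for Scd2, -0.19 for Fads1, -0.17 for Acaca and -0.19 for Scap, with edgeR adjusted p between 0.0558 and 0.117. Scd2 kept its call in all 8 fits without 1 library, and leaving out PTH replicate 2 alone ended no call among the fatty acid genes that fell.

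**Figure D5:**
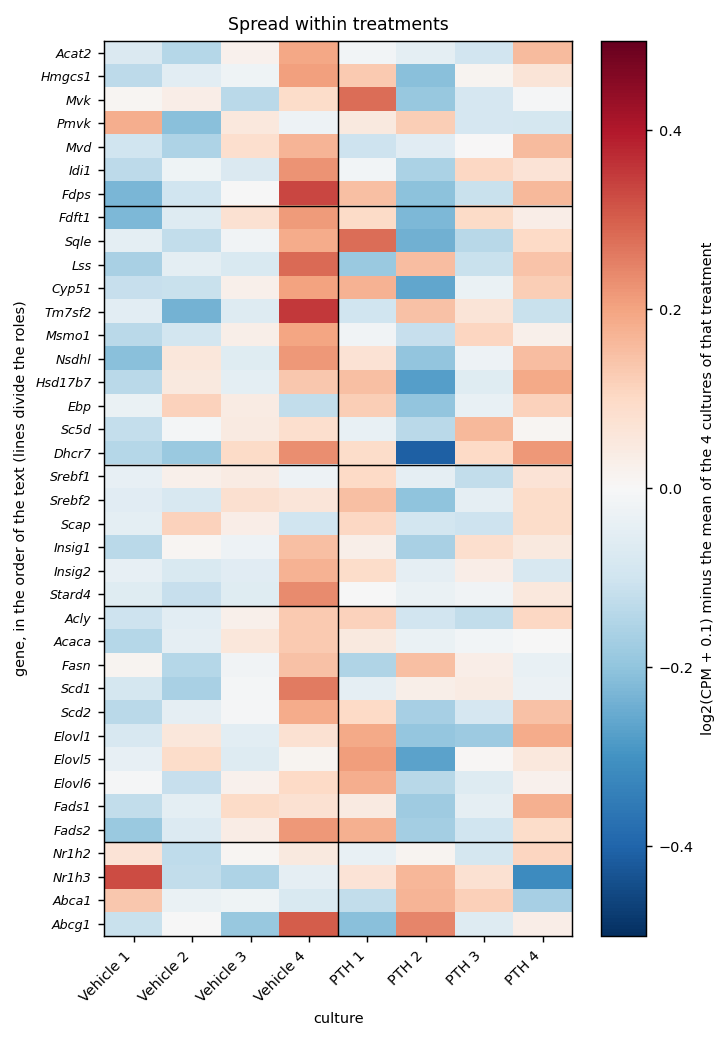
Heat map of the deviation of each of the 38 genes (rows, grouped by role) from its treatment mean in each sample (columns), as log2(CPM + 0.1), red above and blue below the mean. Most genes lie above 0 in vehicle replicate 4 (32 of 38) and below 0 in PTH replicate 2 (29 of 38). All genes tested were not counted in this way.

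The wider list held 54 other genes of these pathways, of which 53 were found and 50 passed the filter on low counts. PTH raised 8 of them (16%) and lowered 15 (30%), against 23.3% and 22.5% of all genes. Of 7 genes of SREBP processing and turnover, 1 rose and 4 fell. The largest rise was that of Fbxw7, a ubiquitin ligase component that marks nuclear SREBP for degradation, from 16.3 ± 2.24 to 22.6 ± 2.52 CPM (log2 0.47, edgeR adjusted p = 0.00455). The largest fall was that of Rnf145, a sterol-responsive ubiquitin ligase, from 84.8 ± 1.85 to 56.1 ± 2.55 CPM (log2 -0.60, edgeR adjusted p = 5.5e-06).

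Of 15 genes of LXR partners, targets and sterol handling, 4 rose and 6 fell. Ch25h, which makes an oxysterol that holds back SREBP processing, was at 2.41, 2.59, 3.44 and 3.08 CPM with vehicle and at 19.2, 17.1, 16.1 and 13.7 CPM with PTH. It rose the most of the wider list (log2 2.52 ± 0.146 SE, edgeR adjusted p = 4.73e-08). Rxrb, a partner receptor of LXRs, fell the most of this group, from 45.6 ± 1.48 to 28.4 ± 1.85 CPM (log2 -0.68, edgeR adjusted p = 6.78e-06). Of 21 tested genes of fatty acid supply and elongation, 2 rose and 4 fell. Elovl4, an elongase of very long chains, had the larger rise (log2 0.69, edgeR adjusted p = 0.00547), and Acacb, the carboxylase at the mitochondrion, had the largest fall, from 7.93 ± 0.478 to 4.12 ± 1.20 CPM (log2 -0.95, edgeR adjusted p = 0.00104). Of 7 tested sterol and isoprenoid enzymes, Soat1, which esterifies cholesterol, rose (log2 0.31, edgeR adjusted p = 0.00177), and Lbr, which also reduces sterols, fell (log2 -0.28, edgeR adjusted p = 0.0145).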

How the data were processed

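RNA was measured by poly(A) RNA sequencing in 4 PTH and 4 vehicle samples, grouped by their labels. Per the paper's methods and the submitters' processing notes, the authors aligned reads to mm10 (GRCm38) with HISAT2, assembled transcripts with StringTie and tested with DESeq2; versions, annotation and strand setting are not given in the sources used here. The authors deposited whole-number counts per gene, not normalized and derived from transcript coverage. Such counts depend on a read length set for counting, 75 by default. The paper's methods name the sequencing read length, but the value set for counting is not given in the sources used here. The 2 entries without a symbol held 0.0028% of the counts.

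Counts were tested with edgeR 4.0.16 in R 4.3.3 (TMM, filterByExpr at 10 counts per sample and 15 in total, two-sided quasi-likelihood test), with Benjamini-Hochberg adjustment over 16736 genes and no minimum fold. CPM values use TMM-scaled library sizes. Library sizes ranged from 33605610 to 56090654 counts. Exact permutation tests used log2(CPM + 0.1) and all 70 assignments. The scripts were tested on simulated data. Positions and transcript lengths come from GENCODE M21, and similar sequences were found with blastn 2.17.0 (at least 150 bases and 95% identity).

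The genes and lists were chosen with earlier results of these data known, so lists are described by counts and medians only. Values in every sample are given for Insig1, Srebf1, Srebf2, Hmgcs1, Sqle, Fasn, Scd1 and Abca1, for up to 2 called genes with the largest rise and the largest fall of each group, and for genes whose call changed without 1 library; of the wider list, the largest called rise and fall of each group are named. Alternatives were DESeq2 1.42.0, its size factors in edgeR, no filter, a replicate block, halved counts, a transcript length offset, a minimum fold and leaving out libraries.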

Additional observations from a re-analysis of the deposited data

Results flagged for a closer look

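In 2 of 76 groups of 4 values, 1 sample lay far from the other 3 by Dixon's 95% criterion, where chance gives about 1 in 20. Insig2 was at 50.3 CPM in vehicle replicate 4 and between 42.3 and 43.4 CPM in the other vehicle samples. Stard4 was at 36.1 CPM in vehicle replicate 4 and between 28.3 and 29.4 CPM in the others. Vehicle replicate 4 is the library in which 32 of the 38 genes were above the vehicle mean, a count not made over all genes tested.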

How the results depend on the processing

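Over 16 alternatives for each of the 38 genes, 556 of 608 log2 fold changes kept their direction and their side of the threshold, 37 lost the call, 2 gained it and 13 changed sign; none of the 13 was called. Pmvk, Mvk, Idi1, Hsd17b7, Cyp51, Dhcr7, Lss, Acat2, Stard4, Insig1, Fasn, Scd1, Elovl5, Elovl6 and Nr1h2 kept their calls in all of them. Smaller changes limit the report: the 6 calls lost without some single library (Hmgcs1, Sqle, Srebf2, Scap, Acaca and Fads1) had log2 fold changes of 0.38 or less in size, and the cause was not tested. The table does not tell which read length scaled the counts, but halving them changed no call. With DESeq2, 14 of the 38 genes rose and 6 fell, without Srebf2 and Scap. With no filter on low counts 12 rose and 7 fell, without Hmgcs1 (adjusted p = 0.0798), Sqle (adjusted p = 0.0541) and Srebf2 (adjusted p = 0.154).

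With a minimum absolute log2 fold change of 1, which by construction keeps only larger changes, 7 of the 38 genes rose and 0 fell, with 2 rises and 0 falls in the mevalonate group, 0 falls from squalene to cholesterol, 1 rise and 0 falls in SREBP control, 2 rises and 0 falls among fatty acid genes and 0 rises among LXR and efflux genes. The single fall in SREBP control, that of Scap, became 0 with DESeq2, with its size factors in edgeR, with the replicate block, with the transcript length offset and with PTH replicate 2 and vehicle replicate 4 both left out. With both left out the falls were 3 over the 38 genes and 0 among fatty acid genes. Leaving out 1 library at a time gave 12 to 15 rises and 4 to 8 falls over the 38 genes, 3 to 4 rises and 1 fall in the mevalonate group, 2 to 3 rises and 2 falls from squalene to cholesterol, 2 to 3 rises and 0 to 2 falls in SREBP control, 4 rises and 1 to 3 falls among fatty acid genes (1 without vehicle replicate 3 or vehicle replicate 4), and 1 rise and 0 falls among LXR and efflux genes. The 4 falls over the 38 genes came without vehicle replicate 3.

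Leaving out 1 library gave log2 values from -0.0059 to 0.19 for Fdps, from -0.015 to 0.20 for Tm7sf2, from -0.027 to 0.090 for Msmo1, from -0.070 to 0.045 for Ebp, from -0.063 to 0.031 for Insig2 and from -0.0024 to 0.082 for Acly. The sign changes were -0.0059 for Fdps without vehicle replicate 1, -0.015 for Tm7sf2 without vehicle replicate 2, -0.0024 for Acly without PTH replicate 1, -0.015 (no filter), -0.018 (without PTH replicate 3), -0.027 (without vehicle replicate 1) and -0.018 (without vehicle replicate 2) for Msmo1, 0.045 (without PTH replicate 2), 0.0054 (without vehicle replicate 2) and 0.0082 (both libraries left out) for Ebp, and 0.031 (transcript length offset), 0.031 (without vehicle replicate 4) and 0.062 (both libraries left out) for Insig2.

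The replicate numbers of the labels showed no sign of pairing the samples. Deviations of same-numbered samples from their group means correlated between -0.041 and 0.027 over 16736 genes. With 4 samples per group, these correlations cannot exclude a pairing. With the replicate block, 14 of the 38 genes rose and 6 fell, and Srebf2 (adjusted p = 0.0517) and Scap (adjusted p = 0.0932) were no longer called.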
